A study of Mus musculus with 10 samples.

Results

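The replication-dependent histone genes encode the histones that package newly copied DNA. The genes were chosen by name and detection, with earlier results of these data known. Considered were all genes whose symbol begins, or in older annotation began, with Hist1h, Hist2h, Hist3h or Hist4h. A gene was kept if it had a probe with a detection p-value below 0.05 on at least 2 arrays. Of 61 such genes on the array 56 met this rule, among 16143 genes tested in all. They comprised 6 of 6 linker histone H1 genes, 16 of 18 H2A, 13 of 15 H2B, 8 of 9 H3 and 13 of 13 H4 genes. The genes left out were H2ac1, H2ac8, H2bc1 and H2bu2, detected on 0 arrays, and H3c8, detected on 1. Of the 56 genes 47 were detected on all 10 arrays and 9 were not.

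Expression had been measured on 10 Illumina mouse beadchips with RNA of flow-sorted lung endothelial cells, which line the blood vessels, from C57/Bl6 mice at postnatal day 6. There were 3 arrays of Rspo3-iECKO mice (Rspo3fl/fl x Cdh5CreERT2+), 2 of Rspo3-WT mice (Rspo3fl/fl x Cdh5CreERT2-), 2 of Evi-iECKO mice (Evifl/fl x Cdh5CreERT2+) and 3 of Evi-WT mice (Evifl/fl x Cdh5CreERT2-). Controls therefore carried the floxed alleles and lacked Cre, and the inducible Cre was driven by Cdh5, a gene of endothelium. The Rspo3 protein is secreted and amplifies Wnt signals, and Evi, also called Wls, is the carrier that brings Wnt proteins to the cell surface. The sources used here do not give the induction schedule or say how many animals made up a sample. The p-values therefore describe the variation among these arrays, part of which may be technical. The series title names genes that change with both deletions as its subject.

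Normalized log2 levels of Wls were 4.85 and 4.68 on the Evi-iECKO arrays, against 5.68, 6.21 and 5.69 on the Evi-WT arrays, a log2 difference of -1.10 (SE 0.27, limma adjusted p = 0.357). The Rspo3 probes were not well above background on any array of the Rspo3 line, so the arrays do not check that deletion. The endothelial marker Cdh5 lay between 8.81 and 9.74 on all arrays. Between 46.47% and 51.26% of probes were detected per array. Precision was limited by how few arrays there were: the median SE of a histone gene's log2 difference within a line was 0.24. In these sorted bulk samples, fewer cells of a type and less RNA per cell cannot be told apart.

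DNA is wound around an octamer of H2A, H2B, H3 and H4, and H1 binds the linker between octamers. Their replication-dependent genes lie in clusters, lack introns in most copies, are transcribed in S phase under the control of Npat, and give mRNAs that end in a stem-loop bound by Slbp rather than in a poly(A) tail. Copies differ little in coding sequence, and some are also reported to give polyadenylated mRNA in cells that have stopped dividing. Between near-identical copies a probe may take up signal of several genes. The probe sequences were not used here, so the members are not independent of each other. Clusters were formed of genes less than 100 kb apart. By the RefSeq positions on GRCm38.p6, 26 members lay at chr13:23531044-23764412, 12 at chr13:21715711-21837530, 5 at chr13:22035122-22043658 and 9 at chr3:96219885-96270192. The others were H2af-ps2, named as a pseudogene, at chr13:51200084-51203066, H2aw and H2bu1-ps on chromosome 11, and H4f16 at chr6:136803993-136804431.

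The classes carry different promoter elements, which are shown because the results below are given by class. In each sequence the 150 bases just before the annotated start are printed 5′ to 3′ from RefSeq on GRCm38.p6. The gene is the member of its class with the smallest p-value between the mouse lines among those with an entry, and H1f4 was added because it had the smallest p-value of the members in the Evi/Wls contrast. Capitals mark 5 motifs on either strand: the CCAAT box, the TATAAA box, the octamer ATTTGCAT bound by Pou2f1, the H4 element letters GGTCCG, and the H1 box letters AAACACA.
H1f1, chr13:23763518-23763667, plus strand: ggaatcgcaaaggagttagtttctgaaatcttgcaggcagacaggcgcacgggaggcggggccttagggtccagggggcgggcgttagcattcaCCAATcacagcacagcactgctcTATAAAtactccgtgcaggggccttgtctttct
H1f4, chr13:23622559-23622708, minus strand: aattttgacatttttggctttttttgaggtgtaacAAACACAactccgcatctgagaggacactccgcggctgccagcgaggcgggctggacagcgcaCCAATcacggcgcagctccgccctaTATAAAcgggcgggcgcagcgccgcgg
H2ac13, chr13:21716262-21716411, plus strand: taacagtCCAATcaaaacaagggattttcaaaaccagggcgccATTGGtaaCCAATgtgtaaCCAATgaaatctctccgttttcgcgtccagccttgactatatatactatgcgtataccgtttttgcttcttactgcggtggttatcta
H2bc15, chr13:21753926-21754075, plus strand: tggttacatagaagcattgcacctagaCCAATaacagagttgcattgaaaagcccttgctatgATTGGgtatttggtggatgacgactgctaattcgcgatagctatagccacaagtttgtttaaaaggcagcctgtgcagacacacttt
H3c6, chr13:23562386-23562535, minus strand: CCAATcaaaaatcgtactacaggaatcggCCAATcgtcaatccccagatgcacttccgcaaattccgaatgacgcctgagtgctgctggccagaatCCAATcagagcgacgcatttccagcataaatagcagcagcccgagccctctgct
H4c4, chr13:23581418-23581567, plus strand: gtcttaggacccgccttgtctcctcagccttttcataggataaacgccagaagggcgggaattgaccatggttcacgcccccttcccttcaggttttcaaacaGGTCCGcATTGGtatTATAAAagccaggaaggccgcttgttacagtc

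Of the 56 members 49 had an entry, and the 250 bases before the start were searched on both strands. CCAAT was present in 6 of 6 H1, 15 of 15 H2A, 10 of 10 H2B and 5 of 6 H3 genes, against 3 of 12 H4 genes and 37.5% of all 27025 genes with an entry. GGTCCG was found in 9 of 12 H4 genes and 1 further member, a share of 20.4% of members against 7.69% of all genes. The octamer was found in 6 of 10 H2B and 5 of 15 H2A genes, against 1.81% of all genes. AAACACA stood in 5 of 6 H1 genes, against 7.2% of all genes. TATAAA stood in 22 of 49 members, against 14.3% of all genes. These are matches of letters and show no binding.

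In the plot of levels by array the core histone genes mostly shared their high and low arrays. Each array was summarised by the median over the 56 members of log2 level minus the gene's mean. This median was 0.22, 0.018 and 0.158 on the Rspo3-iECKO arrays, against 0.592 and 0.329 on the Rspo3-WT arrays. It was -0.237 and 0.118 on the Evi-iECKO arrays, against -0.094, -0.497 and -0.549 on the Evi-WT arrays. All Rspo3-iECKO arrays thus lay below both Rspo3-WT arrays, while the Evi-iECKO and Evi-WT arrays overlapped. The order of group means Rspo3-WT, Rspo3-iECKO, Evi-iECKO, Evi-WT from high to low was met by 33 of 56 members (58.9%), against 4.36% of all genes. Rspo3-WT was the highest group in 45 members and in 23% of all genes, and Evi-WT the lowest in 42 members and in 21.6% of all genes.

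**Figure D1:**
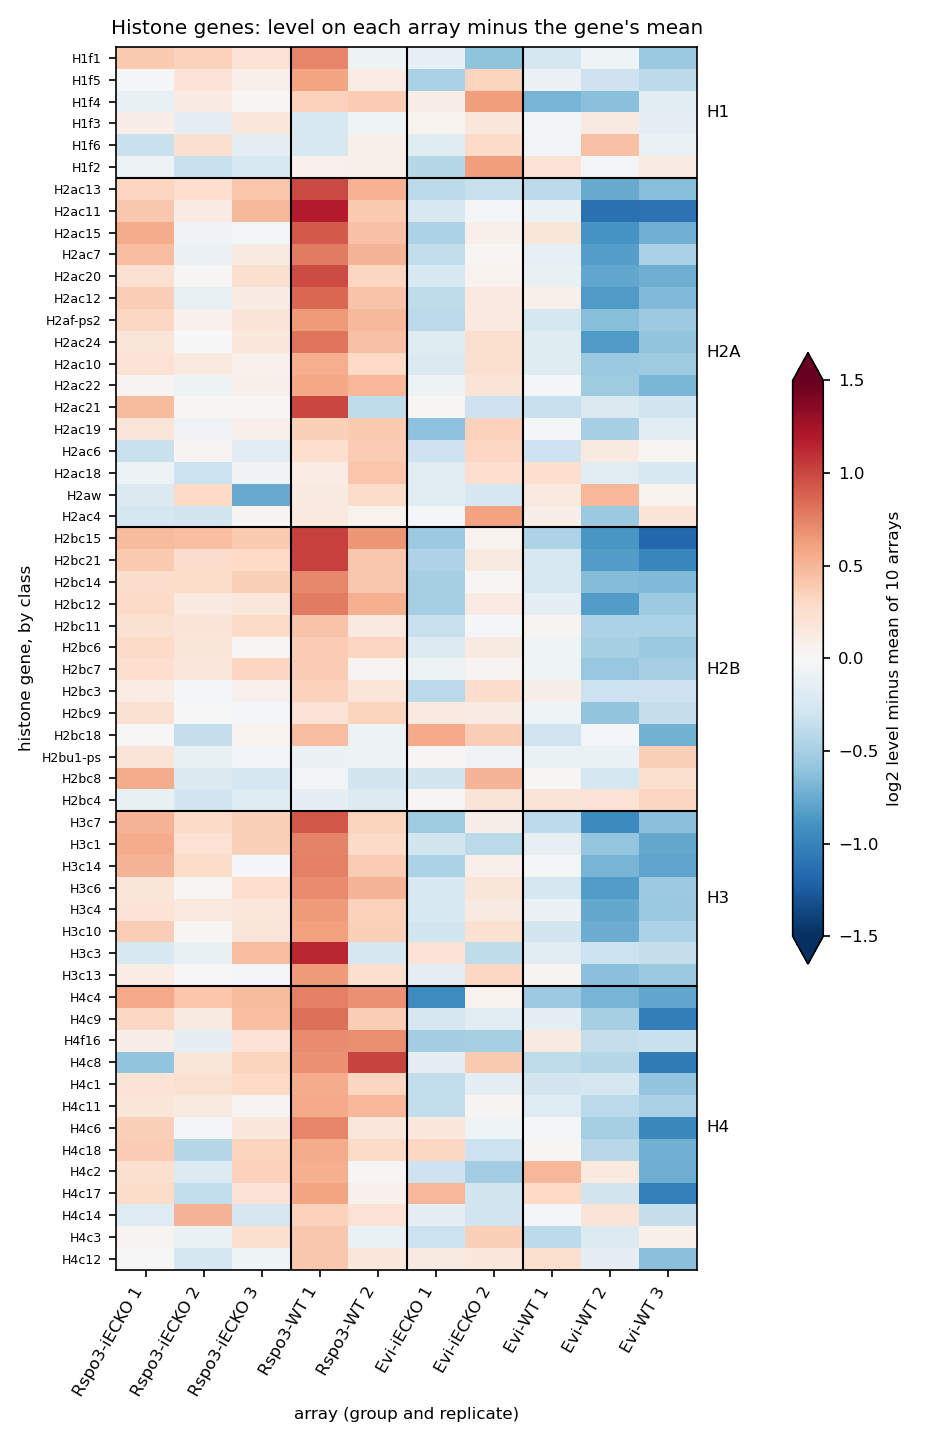
Each row is 1 of the 56 histone genes, grouped by class, and each column 1 of the 10 arrays; colour gives the normalized log2 level minus the gene's mean over 10 arrays. The H2A, H2B, H3 and H4 rows are mostly red on the Rspo3-WT arrays and blue on Evi-WT replicates 2 and 3.

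**Figure D2:**
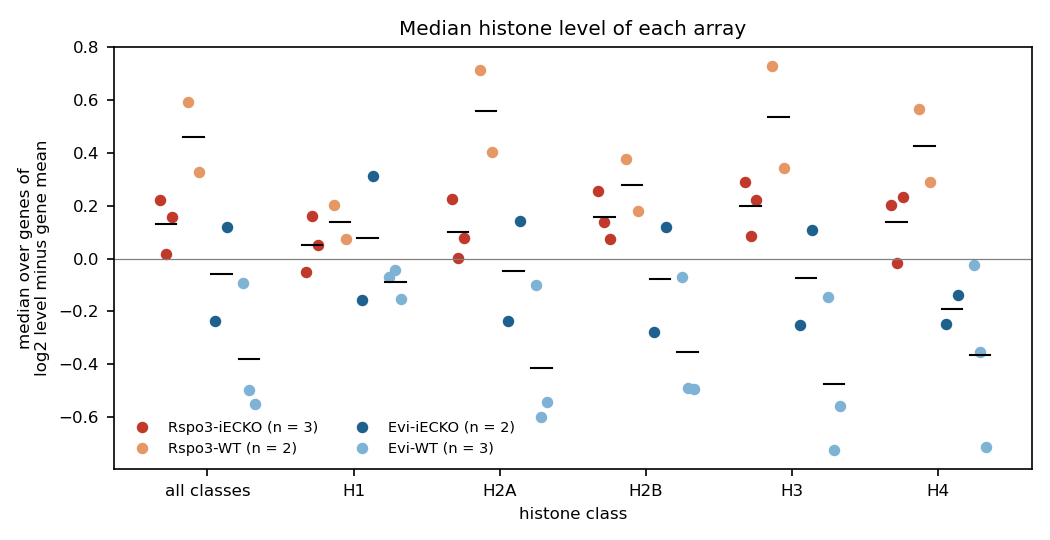
Each point is 1 array's median over the genes of a class (vertical axis, log2 level minus gene mean), and black bars are group means. Over all classes the Rspo3-iECKO arrays lie between 0.018 and 0.22, below the Rspo3-WT arrays at 0.329 and 0.592, and the Evi-iECKO and Evi-WT arrays overlap.

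The first comparison asked how histone genes differed after endothelial deletion of Rspo3. Histone genes were mostly a little lower in Rspo3-iECKO than in Rspo3-WT: 51 of 56 members had the lower mean, with a median log2 difference of -0.30, or 1.23-fold, against -0.0076 over all genes. No member passed an adjusted p-value of 0.05 (Benjamini-Hochberg over all genes, limma; smallest 0.996), as for all genes (0 of 16143, 0%). Without adjustment 7 members had a p-value below 0.05, all lower, 12.5% of members against 2.01% of all genes that were lower at that level. Arrays did not overlap, with Rspo3-iECKO lower, for 29 members and for 11.9% of all genes, and with Rspo3-iECKO higher for 0 members and 10.8% of all genes.

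By class, all 16 H2A genes were lower (median -0.44), as were all 8 H3 (-0.32) and all 13 H4 genes (-0.29), with 10 of 13 H2B (-0.20) and 4 of 6 H1 genes (-0.13). H4c8, a gene for the core histone H4, had normalized log2 levels of 5.11, 5.88 and 6.03 in Rspo3-iECKO, against 6.38 and 6.71 in Rspo3-WT. Its log2 difference was -0.87 (SE 0.30, unadjusted p = 0.0122, adjusted p = 1), and a further H4c8 probe, detected on 8 arrays, gave 0.08. H4f16, the solitary H4 gene of chromosome 6, read 5.57, 5.32 and 5.68 in Rspo3-iECKO, against 6.18 and 6.16 in Rspo3-WT. Its difference was -0.65 (SE 0.20, unadjusted p = 0.00611, adjusted p = 0.996), and a further probe gave 0.31. With the authors' normalized values the H4f16 difference was -0.26. For both genes the chosen probe separated the groups without overlap, and the further probe did not share the direction. H2ac22 (H2A) read 6.77, 6.66 and 6.81 in Rspo3-iECKO, against 7.31 and 7.23 in Rspo3-WT, a difference of -0.53 (SE 0.21, unadjusted p = 0.0264, adjusted p = 1). H3c6 (H3) read 8.84, 8.67 and 8.91, against 9.37 and 9.17 in Rspo3-WT, a difference of -0.46 (SE 0.21, unadjusted p = 0.0485, adjusted p = 1). H2bc12 (H2B) read 9.49, 9.34 and 9.38, against 9.98 and 9.74 in Rspo3-WT, and its further probe gave -0.08.

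The size of this difference depended on the scaling. With arrays scaled to equal medians in place of quantiles, 24 members were higher and 32 lower with a median of -0.02, while the median of all genes moved to 0.11. Relative to that shift, 49 of 56 members were lower and the median was -0.14. Non-overlapping arrays fell to 5 of 56 members lower, a share near the 6.55% of all genes. With Rspo3-iECKO higher, arrays did not overlap for 0 members, against 24.5% of all genes. At an unadjusted p-value below 0.05 (limma), 2 of 56 members were then lower and 0 higher, against 7 lower with quantile normalization. The share of all genes at that level is not given for median scaling, so this count is no result about the members. One control array also carried part of the size: leaving out Rspo3-WT replicate 1 gave a median of -0.17, and leaving out Rspo3-WT replicate 2 gave -0.45.

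The second comparison made the same contrast for Evi/Wls. Here 47 of 56 members had the higher mean in Evi-iECKO, with a median log2 difference of 0.31 (1.24-fold), against 0.0090 over all genes. None passed an adjusted p-value of 0.05 (limma; smallest 0.366), nor did any of all genes (0%). Without adjustment 10 members had a p-value below 0.05, all higher, 17.9% of members against 4.47% of all genes that were higher at that level. Arrays did not overlap, with Evi-iECKO higher, for 6 members, a share near the 10.8% of all genes, and with Evi-iECKO lower for 3 members, H2aw, H2bc4 and H4f16, and 9.2% of all genes. The further H4f16 probe gave a log2 difference of 0.08. With arrays scaled to equal medians, 47 of 56 members were still higher, with a median of 0.22, against -0.02 over all genes. At an unadjusted p-value below 0.05 (limma), 2 of 56 members were then higher and 0 lower, against 10 higher with quantile normalization. The share of all genes at that level is not given for median scaling, so this count is no result about the members. Arrays then did not overlap, with Evi-iECKO higher, for 3 members and 8.5% of all genes.

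All 8 H3 genes were higher (median 0.43), with 15 of 16 H2A (0.33), 11 of 13 H2B (0.32), 10 of 13 H4 (0.23) and 3 of 6 H1 genes (0.06). H1f4, a somatic linker histone, had the smallest p-value of the members: it read 5.92 and 6.45 in Evi-iECKO, against 5.12, 5.19 and 5.65 in Evi-WT. Its difference was 0.86 (SE 0.21, unadjusted p = 0.00155, adjusted p = 0.366), and the groups did not overlap. The difference was 0.34 with no background correction and 0.35 with the authors' normalized values. H2bc18 (H2B, chromosome 3) read 5.80 and 5.60 in Evi-iECKO, against 4.93, 5.21 and 4.52 in Evi-WT, a difference of 0.81 (SE 0.24, unadjusted p = 0.00507, adjusted p = 0.453), and 0.26 with the authors' normalized values. H4c8 read 5.55 and 6.09 in Evi-iECKO, against 5.32, 5.27 and 4.65 in Evi-WT, a difference of 0.74 (SE 0.30, unadjusted p = 0.0283, adjusted p = 0.57), and 0.24 with those values. The further H4c8 probe gave 0.12. H3c6 read 8.43 and 8.84 in Evi-iECKO, against 8.41, 7.82 and 8.11 in Evi-WT, so that its lowest Evi-iECKO array nearly met its highest Evi-WT array. H2ac24 (H2A) read 8.66 and 9.08 in Evi-iECKO, against 8.66, 7.99 and 8.25 in Evi-WT. H1f2, the H1 copy reported to persist in resting cells, differed by -0.01 (SE 0.26), with 8.21 and 9.26 in Evi-iECKO, against 8.85, 8.62 and 8.76 in Evi-WT.

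Single arrays set the size of this median. It was 0.51 without Evi-iECKO replicate 1, 0.11 without Evi-iECKO replicate 2, 0.47 without Evi-WT replicate 1, 0.19 without Evi-WT replicate 2 and 0.20 without Evi-WT replicate 3. Evi-iECKO replicate 2 was also the array with the most signal of alveolar type 2 cells, the surfactant-making cells of the alveolus. Of 12 such markers all were detected in each group and all 12 were higher in Evi-iECKO than in Evi-WT (median 0.75), against 51.4% of all genes. Their mean level was 4.78 and 7.63 on the Evi-iECKO arrays, against 4.94 to 5.78 on the Evi-WT arrays. Of 6 measured genes of erythroid cells and platelets all 6 were lower in Evi-iECKO (median -0.58), against 48.6% of all genes. Their mean levels were 6.08 and 6.84 in Evi-iECKO, against 6.60 to 7.19 in Evi-WT. The part of these cells in the histone values was not tested.

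**Figure D3:**
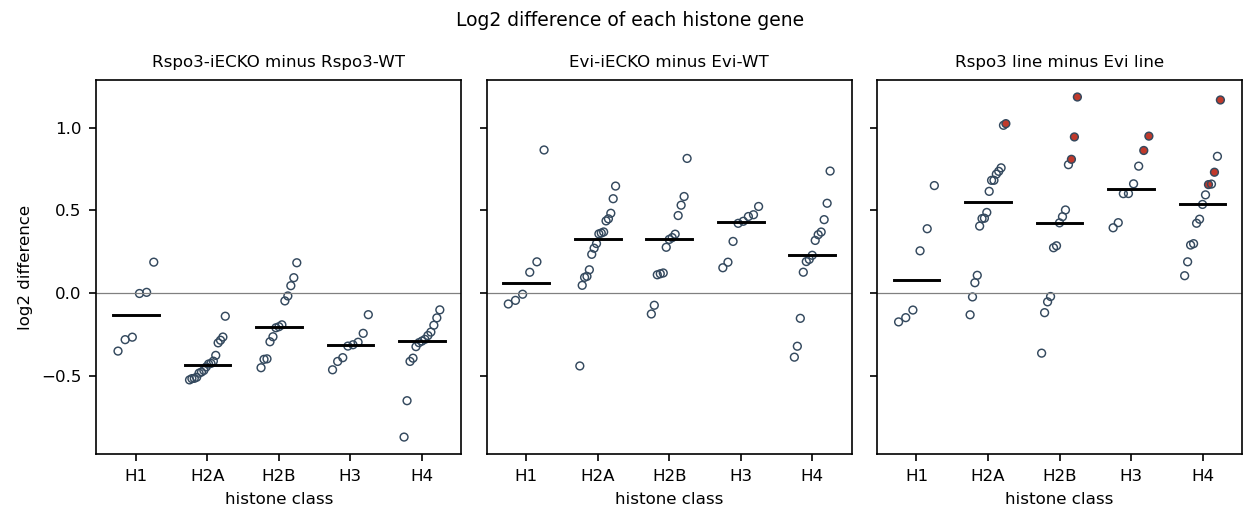
Each circle is a histone gene, placed by class, with its log2 difference in 3 contrasts; black bars are class medians, and filled circles have an adjusted p-value below 0.05. The H2A, H3 and H4 genes are all below 0 in the Rspo3 contrast (with quantile normalization), most are above 0 in the other contrasts, and filled circles occur in the contrast of the lines alone.

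Averaged over both deletions, histone genes showed no common direction with quantile normalization: 28 members were higher and 28 lower, with a median of 0.00. There was no adjusted call among members or all genes (0%). At an unadjusted p-value below 0.05, H2aw (-0.43, SE 0.19, adjusted p = 0.837) and H4f16 (-0.49, SE 0.14, adjusted p = 0.58) were lower, 3.57% of members against 2.6% of all genes, and 0 were higher. The further H4f16 probe, detected on 10 arrays, gave 0.20. H2aw, an H2A gene of chromosome 11, read 4.77, 5.28 and 4.23 in Rspo3-iECKO, against 5.12 and 5.26 in Rspo3-WT, so these groups overlapped. It read 4.82 and 4.73 in Evi-iECKO, against 5.13, 5.49 and 5.04 in Evi-WT, which did not overlap. The even split of the members depended on the scaling. With arrays scaled to equal medians, 44 members were higher and 12 lower, with a median of 0.089, against 0.042 over all genes. Relative to that median of all genes, 35 members were higher and 21 lower.

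The difference of the deletions, taken as the Rspo3 difference minus the Evi/Wls difference, had a median of -0.63 over the members, against -0.018 over all genes, and 48 of 56 were below 0. No member passed adjustment (limma; smallest adjusted p 0.689), nor did any gene (0%). At an unadjusted p-value below 0.05, 22 members were below 0 and 0 above, 39.3% of members against 3.41% of all genes. The members of smallest p-value were H1f4 at -1.22 (SE 0.30, unadjusted p = 0.00162) and H4c8 at -1.61 (SE 0.42, unadjusted p = 0.00227). A further H4c8 probe, detected on 8 arrays, gave -0.05. Next came H2ac22 at -1.01 (SE 0.29), H2ac24 at -1.08 (SE 0.32), H3c6 at -0.99 (SE 0.30) and H2bc18 at -1.11 (SE 0.34). With the authors' normalized values the difference was -0.62 for H4c8, -0.48 for H1f4, -0.35 for H2bc18, -0.58 for H2ac22 and -0.84 for H3c6. By class the median was -0.73 for H2A, -0.71 for H3, -0.62 for H4, -0.53 for H2B and -0.11 for H1. The median over all classes was -0.28 with median scaling, where all genes lay at 0.13. With that scaling 4 of 56 members were below 0 at an unadjusted p-value below 0.05 (limma) and 0 above. The share of all genes at that level is not given for this scaling. Relative to the median of all genes, 51 of 56 members were then lower. This contrast uses the same control arrays as the comparison of the wild-type arms below, so the values of these contrasts are not independent of each other.

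The lines themselves were compared next, first between their Cre-negative arms. In Rspo3-WT 49 of 56 members were higher than in Evi-WT, with a median log2 difference of 0.82 (1.77-fold), against -0.017 over all genes. Of these members 38 had an unadjusted p-value below 0.05, 67.9% against 4.53% of all genes that were higher at that level, and 1 member, H2bc4, was lower at that level, against 4.27% of all genes. After adjustment 2 members passed, of 6 genes in all (0.0372%): H2ac13 and H2bc15. Arrays did not overlap for 39 members higher in Rspo3-WT, against 11.9% of all genes, and for 1 member lower, against 13.5% of all genes. By class the median was 1.0 for H2A, 0.99 for H3, 0.82 for H4, 0.59 for H2B and 0.29 for H1, and 11 of 16 H2A, 7 of 8 H3, 8 of 13 H4, 9 of 13 H2B and 3 of 6 H1 genes were higher at an unadjusted p-value below 0.05. The difference between H1 and the core classes was not tested.

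H2bc15 (H2B, chr13:21754076-21754553) read 8.03 and 7.66 in Rspo3-WT, against 6.54, 6.13 and 5.83 in Evi-WT. It was 3.20-fold higher in Rspo3-WT (log2 1.68, SE 0.24, adjusted p = 0.0384), and the groups stood apart by more than the spread within either. H2ac13 (H2A, chr13:21716412-21716859) read 10.04 and 9.57 in Rspo3-WT, against 8.66, 8.29 and 8.41 in Evi-WT, and was 2.56-fold higher (log2 1.35, SE 0.19, adjusted p = 0.0384). Both calls were lost without a detection filter, with the mean of all probes, and when any of 7 of the 10 arrays was left out. H2ac11 (H2A) gave 1.56 (SE 0.31, adjusted p = 0.138) and H4c8 1.46 (SE 0.30, adjusted p = 0.138). The further H4c8 probe gave -0.30.

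With both arms used, as the mean of the line difference between deleted and between control mice, the Rspo3 line exceeded the Evi line in 47 of 56 members, with a median of 0.47 (1.39-fold), against -0.032 over all genes. At an unadjusted p-value below 0.05, 35 members were higher, 62.5% against 7.27% of all genes that were higher at that level, and 1 member was lower, against 8.08% of all genes. After adjustment 9 members passed, all higher in the Rspo3 line: 16.1% of members, against 125 genes or 0.774% of all genes tested. This count rested on few arrays: it was 1 without either Rspo3-WT replicate, 2 or 3 without any Rspo3-iECKO replicate or without Evi-WT replicate 2 or 3, 5 without Evi-iECKO replicate 1 and 17 without Evi-iECKO replicate 2. It was 1 with no detection filter and 42 with median scaling, which called 2927 of all genes. The 5 arrays of the Rspo3 line lay above all 5 of the Evi line for 14 members, against 1.88% of all genes, and below them for 1 member, H2bc4, a share near the 1.99% of all genes. By class, all 13 H4 (median 0.54) and all 8 H3 genes (0.63) were higher, with 14 of 16 H2A (0.55), 9 of 13 H2B (0.42) and 3 of 6 H1 genes (0.08).

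In the H2A and H2B classes, whose products pair as dimers in the nucleosome, H2ac13, H2bc14, H2bc15 and H2bc21 passed. H2bc15 read 7.48, 7.46 and 7.39 in Rspo3-iECKO and 8.03 and 7.66 in Rspo3-WT, against 6.46 and 7.05 in Evi-iECKO and 6.54, 6.13 and 5.83 in Evi-WT. It was 2.27-fold higher in the Rspo3 line (log2 1.19, SE 0.17, adjusted p = 0.0142). H2ac13 read 9.37, 9.30 and 9.47 in Rspo3-iECKO and 10.04 and 9.57 in Rspo3-WT, against 8.66 and 8.72 in Evi-iECKO and 8.66, 8.29 and 8.41 in Evi-WT. It was 2.03-fold higher (log2 1.02, SE 0.14, adjusted p = 0.0104), and a further probe gave 0.59. For both genes no array of the Evi line reached the lowest array of the Rspo3 line. H2bc14 (H2B) read 9.55, 9.57 and 9.65 in Rspo3-iECKO and 10.01 and 9.69 in Rspo3-WT, against 8.79 and 9.31 in Evi-iECKO and 9.05, 8.64 and 8.63 in Evi-WT. It was 1.75-fold higher in the Rspo3 line, without overlap (log2 0.81, SE 0.15, adjusted p = 0.0347). H2bc21 (chromosome 3), a copy also reported as polyadenylated in differentiated cells, read 9.12, 9.0 and 9.03 in Rspo3-iECKO and 9.76 and 9.14 in Rspo3-WT, against 8.27 and 8.87 in Evi-iECKO and 8.49, 7.89 and 7.75 in Evi-WT. By this brightest probe it was 1.92-fold higher (log2 0.94, SE 0.19, adjusted p = 0.0453). A further H2bc21 probe, detected on 10 arrays, gave -0.36, and the mean of its probes gave 0.29 (adjusted p = 0.338), so its direction rests on the probe chosen.

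In the H3 and H4 classes, which form the central tetramer, H3c1, H3c7, H4c1, H4c4 and H4f16 passed. H4c4 read 8.37, 8.22 and 8.28 in Rspo3-iECKO and 8.56 and 8.49 in Rspo3-WT, against 6.86 and 7.85 in Evi-iECKO and 7.26, 7.10 and 7.02 in Evi-WT. It was 2.25-fold higher in the Rspo3 line (log2 1.17, SE 0.17, adjusted p = 0.0146), with no overlap, although its Evi-iECKO arrays differed by more than the arrays of any other group. H3c1 read 5.71, 5.38 and 5.52 in Rspo3-iECKO and 5.90 and 5.44 in Rspo3-WT, against 4.88 and 4.75 in Evi-iECKO and 5.03, 4.58 and 4.39 in Evi-WT, and was 1.82-fold higher in the Rspo3 line (log2 0.86, SE 0.16, adjusted p = 0.0342). H4c1, its neighbour in the cluster, read 9.39, 9.42 and 9.49 in Rspo3-iECKO and 9.74 and 9.51 in Rspo3-WT, against 8.82 and 9.05 in Evi-iECKO and 8.91, 8.93 and 8.60 in Evi-WT, and was 1.58-fold higher (log2 0.66, SE 0.13, adjusted p = 0.0394). Neither gene's lines overlapped. H3c7 read 7.48, 7.25 and 7.33 in Rspo3-iECKO and 7.90 and 7.30 in Rspo3-WT, against 6.43 and 7.06 in Evi-iECKO and 6.58, 6.01 and 6.34 in Evi-WT, and was 1.93-fold higher (log2 0.95, SE 0.18, adjusted p = 0.0348), and the mean of its probes gave 0.51 (adjusted p = 0.0885). H4f16 was 1.66-fold higher (log2 0.73, SE 0.14, adjusted p = 0.0371), but Evi-WT replicate 1, at 5.60, lay among the Rspo3-iECKO arrays at 5.57, 5.32 and 5.68. A further H4f16 probe gave -0.10 and the mean of its probes 0.32 (adjusted p = 0.363). With no background correction the log2 difference was 0.27 for H3c1, 0.26 for H4f16, 0.57 for H3c7 and 0.71 for H2bc15, each still past the threshold.

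**Figure D4:**
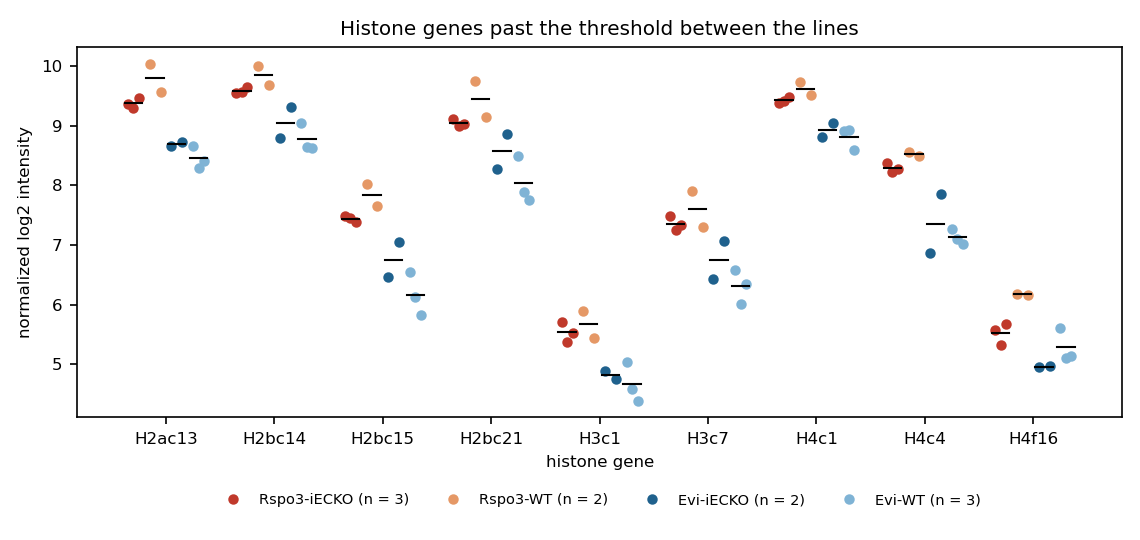
Normalized log2 intensity of the 9 histone genes past the threshold between the lines; points are arrays, coloured by group, and black bars are group means. For 8 of the genes the Rspo3-iECKO and Rspo3-WT arrays lie above all Evi-iECKO and Evi-WT arrays, and H4f16 overlaps through Evi-WT replicate 1 at 5.60.

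Several members did not share the pattern between the lines. H2bc4 (Hist1h2bc), an H2B gene reported to give polyadenylated mRNA as well, read 5.28, 5.10 and 5.19 in Rspo3-iECKO and 5.24 and 5.18 in Rspo3-WT, against 5.42 and 5.58 in Evi-iECKO and 5.58, 5.59 and 5.71 in Evi-WT. Its log2 difference was -0.36 (SE 0.12, unadjusted p = 0.00818, adjusted p = 0.157), with no overlap of the lines, and a further probe detected on 9 arrays gave 0.26. H1f2 differed by -0.17 (SE 0.18), and its further probe, detected on 10 arrays, gave 0.02. H1f3 and H1f6, the latter named as the testis copy of H1, differed by -0.10 (SE 0.13) and -0.15 (SE 0.17). They were detected on 7 and 6 arrays. For H1f2, H1f3 and H1f6 the difference was smaller than its SE. H1f1 was the H1 gene with the smallest p-value: it read 5.63, 5.58 and 5.45 in Rspo3-iECKO and 5.96 and 5.15 in Rspo3-WT, against 5.11 and 4.63 in Evi-iECKO and 4.97, 5.17 and 4.67 in Evi-WT. Its difference was 0.65 (SE 0.18, adjusted p = 0.107), and Evi-WT replicate 2 just exceeded Rspo3-WT replicate 2. The 9 members not detected on all arrays had a median of -0.02, against 0.60 for the 47 detected on all arrays.

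The brightest member of each class was followed in every group as well. H1f2 (H1) read 8.56, 8.30 and 8.41 in Rspo3-iECKO, against 8.70 and 8.71 in Rspo3-WT, a difference of -0.28 (SE 0.26) without overlap, and its Evi arrays are given above. H2ac10 (H2A) read 10.14, 10.07 and 9.99 in Rspo3-iECKO and 10.47 and 10.23 in Rspo3-WT, against 9.71 and 10.17 in Evi-iECKO and 9.75, 9.37 and 9.39 in Evi-WT. H2bc7 (H2B) read 10.23, 10.14 and 10.29 in Rspo3-iECKO and 10.35 and 10.01 in Rspo3-WT, against 9.90 and 10.01 in Evi-iECKO and 9.91, 9.41 and 9.48 in Evi-WT. In both genes the arrays of the lines met or overlapped through Evi-iECKO replicate 2. H3c10 (H3) read 10.03, 9.68 and 9.85 in Rspo3-iECKO and 10.28 and 10.02 in Rspo3-WT, against 9.39 and 9.89 in Evi-iECKO and 9.39, 8.92 and 9.19 in Evi-WT. H4c11 (H4) read 9.53, 9.48 and 9.39 in Rspo3-iECKO and 9.92 and 9.85 in Rspo3-WT, against 8.98 and 9.39 in Evi-iECKO and 9.15, 8.94 and 8.86 in Evi-WT. The lines overlapped in H3c10, where Evi-iECKO replicate 2 exceeded Rspo3-iECKO replicates 2 and 3, and in H4c11 that array met Rspo3-iECKO replicate 3 to the digits printed.

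The line difference was found in each large cluster. All 12 members of the cluster that starts at chr13:21715711 were higher in the Rspo3 line (median 0.60), as were all 5 of the adjoining cluster (0.78), 8 of 9 on chromosome 3 (0.40) and 20 of 26 in the largest cluster (0.42). In Rspo3-iECKO against Rspo3-WT the members of these clusters that were lower numbered 12 of 12, 5 of 5, 9 of 9 and 22 of 26. In Evi-iECKO against Evi-WT those that were higher numbered 12 of 12, 5 of 5, 8 of 9 and 21 of 26. Across 24 further probes of 21 members, 17 had the sign of the chosen probe between the lines, 16 in the Rspo3 contrast and 17 in the Evi/Wls contrast.

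Line and processing cannot be told apart in these arrays, because nothing in the labels or headers places arrays of both lines in 1 run. Arrays of the Rspo3 line had 49.82% to 51.26% of probes detected, and those of the Evi line 46.47% to 48.63%. All 10 endothelial markers were also higher in the Rspo3 line (median 0.30), against 44.2% of all genes. Of these markers 1 passed adjustment, against 0.774% of all genes in either direction. Their mean levels were 8.97 to 9.12 on the arrays of the Rspo3 line and 8.72 to 8.89 on those of the Evi line. The part of this difference in the histone values was not tested.

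The genes that make and handle histone mRNA went both ways. Of 27 listed genes for histone transcription and mRNA processing 23 were measured, and their median differed by -0.03 in the Rspo3 contrast, 0.02 in the Evi/Wls contrast and -0.04 between the lines, with 0 adjusted calls in each. Single genes of the list lay between -0.41 and 0.57 in the Rspo3 contrast and between -0.57 and 0.75 in the Evi/Wls contrast, and the difference between the list and the histone genes was not tested. Npat, the activator of histone transcription at S phase, read 5.70, 5.68 and 5.75 in Rspo3-iECKO, against 5.82 and 5.73 in Rspo3-WT (-0.07, SE 0.19), and differed by 0.18 (SE 0.19) in the Evi/Wls contrast. The 1 probe of Slbp was detected on 0 arrays and was not tested. Lsm11, part of the U7 particle that trims histone mRNA, differed by 0.75 (SE 0.27, unadjusted p = 0.016, adjusted p = 0.516) in the Evi/Wls contrast and -0.11 (SE 0.27) in the Rspo3 contrast. Pou2f1, the octamer-binding factor Oct1, gave -0.41 (SE 0.22) in the Rspo3 contrast and -0.30 (SE 0.22) in the Evi/Wls contrast.

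Of 22 listed chaperones and the acetyltransferase of new histones 18 were measured, with medians of 0.06, 0.02 and -0.07 in the same 3 contrasts. Chaf1b, a subunit of the factor that loads H3 and H4 behind the replication fork, read 5.93, 6.57 and 6.45 in Rspo3-iECKO, against 5.55 and 5.77 in Rspo3-WT. It read 6.62 and 6.80 in Evi-iECKO, against 6.24, 5.64 and 6.17 in Evi-WT, and neither contrast overlapped. Averaged over the deletions it differed by 0.67 (SE 0.17, unadjusted p = 0.00162, adjusted p = 0.503). Daxx, a chaperone of the variant H3.3, gave 0.59 (SE 0.16, unadjusted p = 0.00255, adjusted p = 0.537) in this average. Rbbp7 gave -0.41 (SE 0.15) and Nap1l1, a chaperone of H2A and H2B, -0.26 (SE 0.13). In the Rspo3 and Evi/Wls contrasts taken singly, Daxx gave 0.74 and 0.44 (SE 0.22 each). Rbbp7 gave -0.13 and -0.68 (SE 0.22 each), and Nap1l1 -0.41 and -0.11 (SE 0.18 each). Of 11 listed variants made outside S phase 10 were measured, with medians of 0.00, 0.05 and 0.20 and 0 adjusted calls. Among these H3f3b differed by -0.27 (SE 0.12) and Macroh2a1 by 0.78 (SE 0.19, adjusted p = 0.0785) between the lines.

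Of 28 listed genes of DNA replication and S phase 26 were measured. Their median was -0.05 in the Rspo3 contrast, 0.17 in the Evi/Wls contrast and 0.13 between the lines, against -0.30, 0.31 and 0.47 for the histone genes, and 0 passed adjustment in any of them. Mcm3, a helicase subunit, gave 0.25 (SE 0.33) and 0.62 (SE 0.33) in the Rspo3 and Evi/Wls contrasts, Mcm6 0.27 and 0.39 (SE 0.24 each), and Fen1, which processes Okazaki fragments, 0.16 and 0.42 (SE 0.20 each). Dut, which keeps uracil out of DNA, gave -0.44 (SE 0.20) and -0.18 (SE 0.20). Of 20 listed mitosis genes 17 were measured, with medians of 0.08, 0.10 and 0.01. Plk1, the mitotic kinase, gave 0.50 (SE 0.41) and 0.42 (SE 0.41). The lists of leukocytes, fibroblasts, and erythroid cells and platelets had medians of -0.22, 0.13 and -0.03 between the lines, with 0 adjusted calls.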

How the data were processed

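RNA of sorted cells was amplified by NuGEN SPIA and labelled with biotin for Illumina beadchips, per the labels' protocols. The authors deposited bead intensity per probe and array, not normalized, with detection p-values, per the file headers. They also deposited normalized intensity, used as an alternative. With R 4.3.3 and limma 3.58.1, intensities were corrected for background, quantile-normalized and log2-transformed by neqc with an offset of 16. Of 46237 probes 30017 were kept, those whose detection p-value was below 0.05 on at least 2 arrays. Of all probes 35784 had 1 symbol and 10453 none. Symbols were updated against RefSeq by Entrez identifier (28620 probes), accession (2637) or synonym (1), and kept as given for 4526. The brightest probe stood for each gene, including 5321 genes with several.

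A model of 4 group means was fitted to 10 arrays with limma, p-values were adjusted by Benjamini-Hochberg over 16143 genes, and the threshold was 0.05. The comparisons numbered 6. Clusters joined genes less than 100 kb apart. The members and gene lists were chosen with earlier results of these data known. Named were, per class, the brightest gene and that of smallest p-value in a comparison, every member past the threshold, up to 4 genes per list, Slbp and Npat; further genes were named after their values were seen. Scripts were tested on simulated arrays. Same-numbered samples of a line did not deviate together (correlations from -0.122 to 0.127), so numbers were not used as pairs. Figures used Python 3.11.15 and matplotlib 3.10.9. Alternatives covered background correction, scaling, the filter, probe choice, variance model and left-out arrays.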

Additional observations from a re-analysis of the deposited data

How the results depend on the processing

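The counts of 0 adjusted calls for each deletion, for both and for their difference stayed 0 under every alternative run. The 9 calls between the lines became 18 with normexp that infers no negative controls, 14 with no background correction and 17 with the authors' normalized values. They became 42 with median scaling, 23 with a trended and robust prior and 21 at a threshold of 0.1. Array weights gave 5 and no filter 1, and leaving out 1 array gave 1 to 17. Calls over all genes that were higher in the Rspo3 line moved as well, from 81 in the main run. They numbered 152 with that normexp, 123 with no background correction and 198 with the authors' values. With median scaling they numbered 2872, and with no filter 30. For the other settings they are not given here. The 2 calls between the wild-type arms became 21 with median scaling, 18 with the trended prior, and 0 with no filter or the mean of all probes. Leaving out 1 array gave 0 to 3. Over all genes, calls higher in Rspo3-WT numbered 43 with median scaling, against 4 in the main run. The replicate block gave 4 and 0 calls in these contrasts, but the numbers do not pair the samples. Median scaling moved the histone median to -0.0207 for the Rspo3 deletion, -0.284 for the difference, 0.923 between the lines and 1.06 between the wild-type arms; the last was 0.535 with no background correction and 0.562 with the authors' values. With arrays left out in turn the median ranged from -0.451 to -0.168 for the Rspo3 deletion, 0.113 to 0.507 for Evi/Wls, -0.0895 to 0.107 for both, -0.816 to -0.434 for the difference, 0.429 to 0.576 between the lines and 0.689 to 0.975 between the wild-type arms. H3c10 changed sign for both deletions, to -0.0354 without Evi-iECKO replicate 2, and ranged up to 0.211 with other arrays left out. Of the calls of single genes between the lines, H2ac13 stayed past the threshold under every alternative. The cause of these changes was not tested. Groups of 2 and 3 arrays limit every p-value.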
